A study of Mus musculus with 33 samples.

Results

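Mini-colon AKP #v, an organoid line derived from mini-colons enriched in crypt tumours, was compared with organoid AKP, a line with the same engineered mutations that stayed in conventional organoid culture. The comparison took the 3 libraries titled mini-colon AKP #v and the organoid AKP libraries rep4 to rep6. These are 6 of the 33 libraries of the series, and all 6 carry the code letter F in the names of the deposited tables. What the letters E and F stand for is not given in the sources used here. AKP is the study's name for cells with engineered alleles that include Apc fl/fl and Trp53 fl/fl, recombined here by OptoCre, a Cre that needs both doxycycline and blue light. Organoid AKP had been lit as organoids and then passaged alongside the mini-colons. The cells of #v were lit in a perfused, tube-shaped mini-colon, grew there as tumours and were then returned to organoid culture. The study followed #v because, of the mini-colon lines, it scored highest for a set of genes marking in vivo AKP. That score came from these libraries, so a likeness of #v to in vivo AKP is not independent of the choice of line.

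Other groups with the letter F serve as comparisons. Mini-colon AKP #iv (3 libraries) is the other crypt-enriched line. In vivo AKP rep4 to rep6 are organoids grown from tumours of the colon in AKP mice carrying Cdx2-creERT2, a Cre of the intestinal epithelium that tamoxifen switches on. Control rep4 to rep6 are organoids that had not been induced. The organoids of all groups grew for 3 days and then spent 24 h in basal medium, which holds no growth factors, before RNA was taken. Line #v is 1 derived line. The labels do not tie any library to a culture of its own, though the study describes each point of its score as 1 culture. The p-values therefore weigh a difference against the variation among libraries of the same group, estimated over all 33 libraries together. That variation may lie between cultures of the same line or be technical.

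The colon epithelium is renewed from LGR5-positive stem cells at the base of the crypt. Their progeny mature into absorptive colonocytes and into secretory goblet and enteroendocrine cells as they move towards the lumen. WNT signals keep the stem cells undifferentiated through β-catenin and TCF/LEF transcription factors. The protein APC marks β-catenin for destruction, so its loss keeps WNT target genes on without a ligand. Receptor tyrosine kinases pass growth factor signals to the MAPK cascade, and p53 arrests or kills damaged cells.

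Levels below are CPM, counts relative to a library size that was scaled by the TMM method. A change is a log2 fold change of #v over organoid AKP rep4 to rep6 (n = 3 libraries against 3), given with its standard error and with the adjusted p of the edgeR quasi-likelihood test over all tested genes. A gene was called higher or lower at an adjusted p under 0.05.

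The #v libraries held 3397553, 6322614 and 8256526 counts and the organoid AKP libraries 5613299, 7232715 and 5916668, within the range of 2438672 to 8256526 over the series. All 12 colon epithelium markers were tested, with a summed level of 4217 to 4475 CPM in #v and 3821 to 4117 CPM in organoid AKP. Of 14 fibroblast and muscle markers, 6, among them *Col1a2* and *Pdgfrb*, had no count in these libraries, and the sum was 0.715 to 1.72 CPM in #v and 0.690 to 0.979 CPM in organoid AKP. Of 14 immune markers, 8 had no count, *Cd3e* and *Tyrobp* among them, and the sum was 4.30 to 5.95 CPM in #v and 7.25 to 11.5 CPM in organoid AKP. Of these, *Cd68*, a lysosomal protein of macrophages, was lower (-0.99 and -1.92 against the 2 sets of organoid AKP libraries described below) and so was *S100a8*, a neutrophil protein (-2.62 and -0.59), the latter against 1 set. Without organoid AKP rep5 *Cd68* was not called (-0.75, adjusted p = 0.054). The endothelial sum was 10.2 to 12.6 CPM in #v and 11.7 to 15.5 CPM in organoid AKP, with 5 of 12 markers, *Kdr* and *Tie1* among them, at 0.

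*Apc*, a targeted gene, stood at 112, 111 and 107 CPM in #v and 103, 109 and 99.6 CPM in organoid AKP (0.08 ± 0.09, adjusted p = 0.56). *Trp53* gave 3.15, 2.64 and 3.93 CPM in #v, 1.07, 1.399 and 1.73 CPM in organoid AKP and 19.1, 16.2 and 17.5 CPM in control. Both lay below control, and #v was higher than organoid AKP (1.22 ± 0.34, adjusted p = 0.0047), while the change against rep1 to rep3 (0.55, adjusted p = 0.26) was not called and the call was lost without #v rep3 (adjusted p = 0.074). In vivo AKP stood at 21.4, 26.0 and 19.2 CPM, not below control, and #v was lower than it (-2.71 ± 0.22, adjusted p = 5.0e-16). The reads come from transcript 3′ ends, which may lie outside the deleted exons, so the levels of *Apc* and *Trp53* do not check the labels.

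Over the 15 libraries of letter F, #v stood apart from organoid AKP on the third principal component. The first component, with 60.2% of the variance, separated control from every AKP library. The second, with 21.6%, set in vivo AKP at 74.0 to 81.4, #v at -16.9 to -11.2 and organoid AKP at -38.3 to -30.5. On the third, with 5.13%, organoid AKP lay at 31.0 to 34.0, #iv at -11.4 to -7.85 and #v at -29.5 to -29.0.

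**Figure D1:**
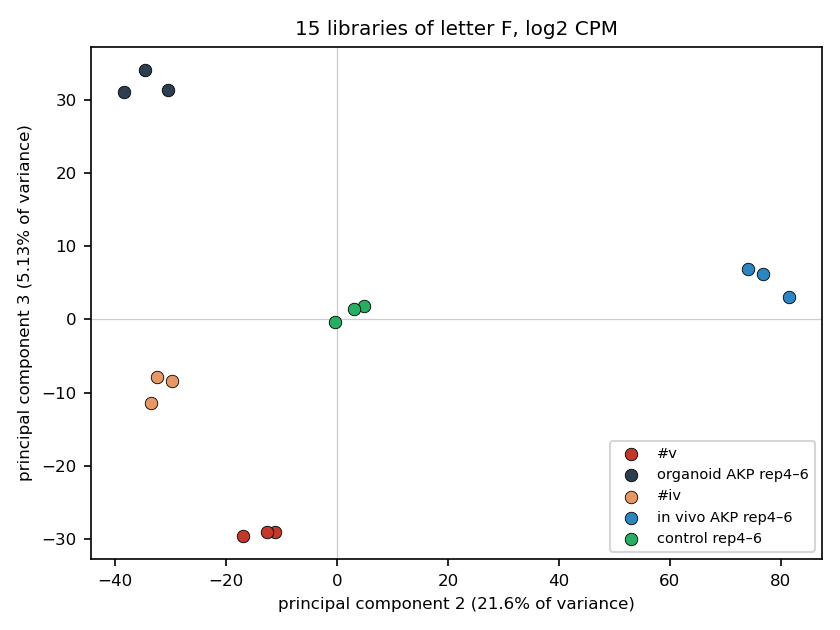
Principal components 2 and 3 of the log2 CPM of the 15 libraries of letter F, 1 point per library and 1 colour per line, with the share of variance on each axis. The 3 #v libraries (red) lie at -29.5 to -29.0 on component 3 and the 3 organoid AKP libraries (dark blue) at 31.0 to 34.0, with #iv in between.

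Of 13606 tested genes, 1685 (12.4%) were higher and 1628 (12%) lower in #v. The counts of called members in the gene lists below are to be read beside these shares, which several lists did not exceed. By at least 1 log2 unit, 513 (3.77%) were higher and 425 (3.12%) lower. The median change over all tested genes was 0.01. The libraries of the 2 lines did not overlap in 1610 of the 1685 higher genes and 1553 of the 1628 lower ones. The 12 largest changes each way, given below, were taken from these genes. How far a call depends on the organoid AKP libraries chosen was measured with the other set, rep1 to rep3, which carry the letter E. Against that set 2161 genes (15.9%) were higher and 2184 (16.1%) lower in #v. Of the 3313 genes called against rep4 to rep6, 1515 were called in the same direction against rep1 to rep3, 194 in the opposite direction and 1604 were not called. With rep1 to rep3 the letter and the culture change together, and this comparison alone cannot tell their parts apart. Control and in vivo AKP also have libraries of both letters. Whether those lines shift alike between the letters was not tested. The change against rep1 to rep3 is therefore given beside many results, and a gene is said to hold where it was called in the same direction against both sets.

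**Figure D2:**
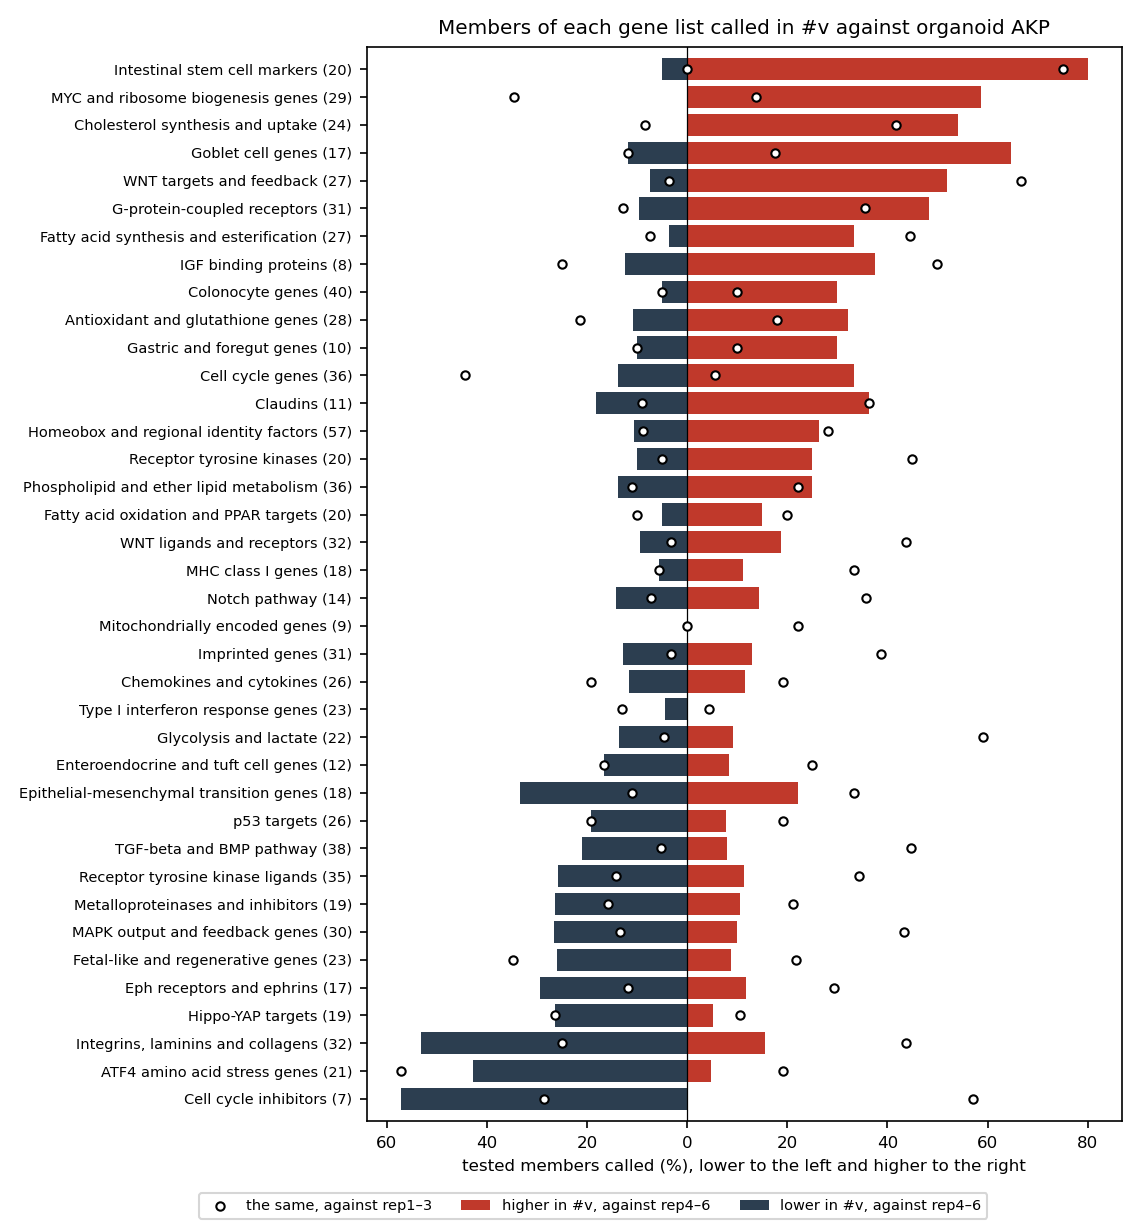
Share of the tested members of each gene list (number in parentheses) called higher (red bars, to the right) or lower (dark bars, to the left) in #v against organoid AKP rep4 to rep6, with open circles for the same shares against rep1 to rep3. Over all tested genes 12.4% were higher and 12% lower. Of 20 stem cell markers 16 were higher against rep4 to rep6 and 15 against rep1 to rep3, whereas 17 of 29 ribosome biogenesis genes were higher against the first set and 4 against the second.

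Among the 12 largest increases were transcription factors of gut and kidney epithelium. *Pax2* (ENSMUSG00000004231, chr19:44735057-44826703 on GRCm39), a homeobox-related factor best known from kidney development, gave 8.59, 10.1 and 11.7 CPM in #v and 0, 0 and 0.173 CPM in organoid AKP. It had 193 counts in #v and 1 in organoid AKP, a ratio of 195 with a 95% exact counting interval of 34.6 to 7754, and no count in rep1 to rep3. Counting intervals cover counting error only. *Hnf4a* (ENSMUSG00000017950, chr2:163348728-163414830), the nuclear receptor that maintains the differentiated gut epithelium, stood at 19.8, 12.6 and 16.7 CPM in #v and 1.25, 0.979 and 0.690 CPM in organoid AKP (4.0 ± 0.37, adjusted p = 8.1e-10). It held against rep1 to rep3 (2.22), and its level in control was 336, 365 and 333 CPM. *Abcb1a*, a drug efflux pump of the colonocyte surface whose reads may be shared with a close copy, had the same order of levels. It gave 20.6, 19.5 and 20.1 CPM in #v, 1.25, 1.399 and 0.690 CPM in organoid AKP (4.11 ± 0.39, adjusted p = 1.1e-08) and 597, 589.6 and 584 CPM in control, and held with a smaller change (1.98).

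*Snrpn* (ENSMUSG00000102252, chr7:59630427-59820763), an imprinted splicing factor gene whose transcript also encodes *Snurf*, gave 25.5, 26.7 and 25.2 CPM in #v and 1.78, 1.12 and 2.42 CPM in organoid AKP (3.88 ± 0.23, adjusted p = 1.2e-20). The change against rep1 to rep3 was 3.01. The histone variant *Macroh2a2* stood at 3.72, 5.12 and 7.03 CPM in #v and 0.356, 0.420 and 0 CPM in organoid AKP (4.23 ± 0.51, adjusted p = 1.3e-09). The phosphodiesterase *Pde3b* stood at 10.03, 6.82 and 6.31 CPM in #v and 0.712, 0.280 and 0.173 CPM in organoid AKP (4.2 ± 0.48, adjusted p = 3.9e-10). *Wipf1*, a partner of the actin regulator WASP, stood at 5.73, 6.36 and 5.002 CPM in #v and 0.534, 0.140 and 0.345 CPM in organoid AKP (4.01 ± 0.44, adjusted p = 6.0e-11). All 3 of these genes held, *Macroh2a2* with a change of 3.67 and *Pde3b* with 2.81 against rep1 to rep3, where *Wipf1* had 3 counts. *Tceal8* was higher by 3.93 and 2.63 against the 2 sets, and *Creb3l1*, a membrane-bound factor of the secretory pathway, by 3.96 and 1.30. *Tm4sf20* had 111 counts in #v and 3 in organoid AKP, a ratio of 37.4 (interval 12.5 to 184), and held (2.80).

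*Reg4*, a marker of deep crypt secretory cells, rose from 4.09, 3.22 and 3.45 CPM in organoid AKP to 92.8, 61.9 and 108 CPM in #v (4.61 ± 0.49, adjusted p = 1.2e-07). In rep1 to rep3 it stood at 29.3, 145 and 86.8 CPM, a range that encloses all 3 #v libraries, and the change was 0.002 (adjusted p = 1). The increase of *Reg4* thus depended on the organoid AKP set, and so did that of *Tff3*, described with the goblet cell genes.

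Among the 12 largest decreases were genes best known from other tissues. *Rhox5* (ENSMUSG00000095180, chrX:36891636-36897311), an X-linked homeobox gene of placenta and testis, stood at 1207, 1205 and 1331 CPM in organoid AKP and at 3.44, 9.46 and 4.88 CPM in #v (-7.65 ± 0.34, adjusted p = 1.2e-14). The fitted change equals a level 200.4 times higher in organoid AKP. It was also high in rep1 to rep3, at 387, 393 and 466 CPM, and low in #iv, in vivo AKP and control, with means of 6.94, 2.57 and 6.36 CPM. *Cryba4*, a lens crystallin, had no count in #v and 15.1, 14.1 and 14.3 CPM in organoid AKP. That is at least 88.6-fold lower in #v when 3 counts over the group are taken as the floor, and the call held. *Cnfn*, *Lgals7* and *Lypd3* are genes of squamous epithelia. *Cnfn* (1.15, 0.775 and 0.476 CPM in #v and 12.1, 12.6 and 9.84 CPM in organoid AKP) and *Lypd3* (0.859, 0.155 and 0.595 and 10.3, 8.25 and 9.67 CPM) changed by -3.97 and -4.18, and by -5.40 and -2.0 against rep1 to rep3. *Lgals7* had 3 counts in #v and 109 in organoid AKP, 35.9 times as much (interval 11.96 to 177), and held.

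*Itgb7*, the integrin β7 chain best known from gut-homing lymphocytes, gave 0.573, 0.465 and 1.31 CPM in #v, 13.9, 15.5 and 15.5 CPM in rep4 to rep6 (-4.07 ± 0.30, adjusted p = 1.1e-16) and 17.02, 16.9 and 12.7 CPM in rep1 to rep3. Both organoid AKP sets lay together and above every #v library. The cation channel *Trpv4* had 2 counts in #v and 119 in organoid AKP, 58.8 times as much (interval 15.9 to 491), and held. The formin *Fmnl1* changed by -3.72 and -2.26 against the 2 sets and the GATA cofactor *Zfpm2* by -4.12 and -4.55.

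*Twist1* and *Dapl1*, also among the 12 largest decreases, were not called against rep1 to rep3. *Twist1*, a driver of mesenchymal conversion, was at 0, 0.155 and 0.119 CPM in #v, 8.72, 9.37 and 10.7 CPM in rep4 to rep6 and 1.02, 0.650 and 0.270 CPM in rep1 to rep3. It had 2 counts in #v against 178 in rep4 to rep6, 87.9 times as much (interval 23.99 to 732), and the adjusted p against rep1 to rep3 was 0.1. *Dapl1* stood at 0, 0.310 and 0.119 CPM in #v and 34.7, 14.97 and 15.5 CPM in rep4 to rep6, with rep4 above the others, and at a mean of 0.108 CPM in rep1 to rep3.

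**Figure D3:**
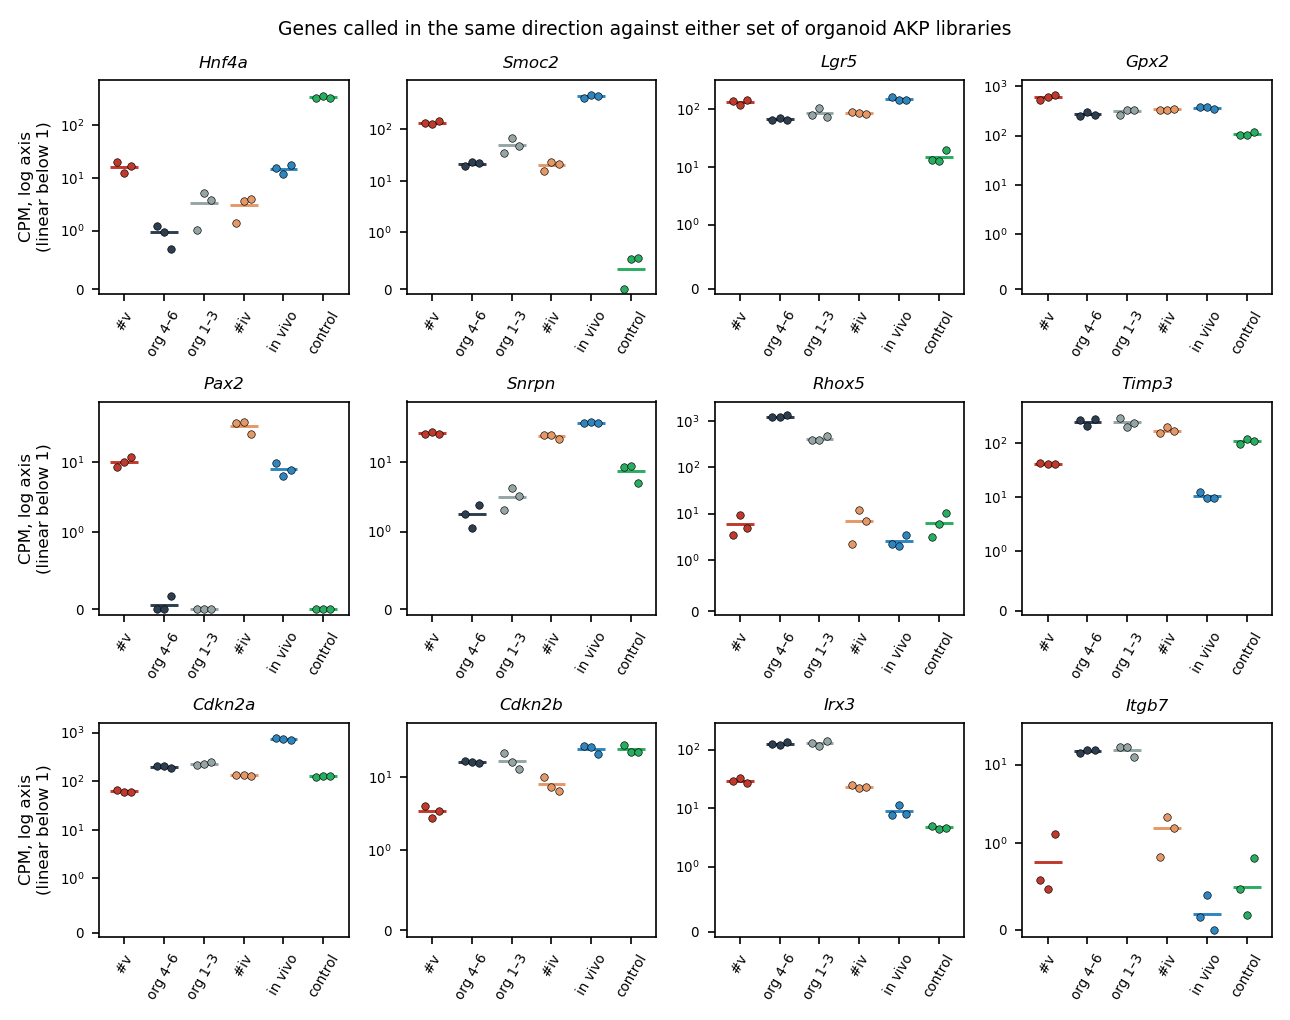
CPM per library (points, axis logarithmic above 1 CPM and linear below) and group mean (line) of 12 genes called in the same direction against both organoid AKP sets, chosen after their values were seen, in #v, organoid AKP rep4 to rep6 and rep1 to rep3, #iv, in vivo AKP and control. In *Rhox5*, *Timp3*, *Irx3* and *Itgb7* both organoid AKP sets stand above #v, and in *Smoc2*, *Lgr5*, *Gpx2*, *Pax2*, *Hnf4a* and *Snrpn* both stand below it.

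Factors that set regional identity along the gut were more often higher than lower in #v. Of 57 tested homeobox and regional factors, 15 were higher and 6 lower, with a median of 0.26, and the counts were 16 and 5 against rep1 to rep3. HOX genes, which mark position along the body axis, gave 2 higher and 2 lower of 24, below the shares over all tested genes. The other factors gave 13 higher and 4 lower of 33. *Cdx2*, which directs intestinal identity, stood at 123, 163 and 132 CPM in #v and 96.5, 96.7 and 70.4 CPM in organoid AKP (0.67 ± 0.13, adjusted p = 0.00013), and at 556, 510.2 and 492 CPM in control. Its relative *Cdx1* had 36 counts in #v and 1 in organoid AKP, a ratio of 36.4 (interval 6.14 to 1479), and held. The endoderm factor *Gata6* rose from 30.4, 34.4 and 38.0 to 78.2, 76.7 and 90.5 CPM (1.26 ± 0.12, adjusted p = 5.0e-13), *Foxa1* from 42.4, 43.7 and 42.3 to 72.2, 88.5 and 93.7 CPM (1.0 ± 0.14, adjusted p = 3.5e-07) and *Foxa3* from 11.2, 9.79 and 6.90 to 36.4, 33.6 and 35.6 CPM (1.91 ± 0.17, adjusted p = 4.5e-14). These factors and *Cdx2* held, with changes of 0.85, 0.70, 1.17 and 0.52 against rep1 to rep3.

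*Hnf4g*, a relative of *Hnf4a*, did not hold. It stood at 2.29, 2.48 and 2.14 CPM in #v and 0.712, 0.280 and 0.173 CPM in organoid AKP (2.52 ± 0.49, adjusted p = 6.3e-05), and its change against rep1 to rep3 was 0.39 (adjusted p = 0.52).

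The Iroquois factor *Irx3* (ENSMUSG00000031734, chr8:92525153-92528695) moved the other way. It gave 28.9, 32.2 and 26.7 CPM in #v, 127, 121 and 134 CPM in rep4 to rep6 (-2.12 ± 0.11, adjusted p = 4.7e-23) and 129, 116 and 143 CPM in rep1 to rep3 (-2.15). Both organoid AKP sets overlapped each other and lay far above #v. Its neighbour *Irx5* was lower too (-0.78 ± 0.16, adjusted p = 0.00012) but did not hold (-0.17). *Prdm16*, a regulator of cell fate that the study names, changed by -0.44 (adjusted p = 0.21) and was lower against rep1 to rep3 (-1.05). *Meis2*, a HOX cofactor, fell from 7.83, 6.86 and 4.66 to 0.286, 0 and 1.55 CPM (-3.05 ± 0.51, adjusted p = 2.0e-05), and *Klf4*, a factor of differentiating and goblet cells, from 503, 491 and 513 to 368, 356 and 356 CPM (-0.48 ± 0.08, adjusted p = 1.0e-06). Both held, at -1.95 and -0.63.

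Markers of intestinal stem cells had the largest share of higher genes among the lists. Of 20 tested markers 16 were higher and 1 lower, with a median of 0.77. Against rep1 to rep3, 15 were higher and 0 lower. *Lgr5* (ENSMUSG00000020140, chr10:115286216-115423685), an R-spondin receptor, marks the stem cells at the base of the crypt. It stood at 137, 119 and 140.4 CPM in #v and 65.1, 69.5 and 65.2 CPM in organoid AKP (0.99 ± 0.12, adjusted p = 8.5e-09), and held (0.64). *Smoc2*, a secreted matrix protein of the same cells, stood at 131, 129 and 144 CPM in #v and 19.05, 23.5 and 22.3 CPM in organoid AKP (2.63 ± 0.17, adjusted p = 7.3e-13). Every #v library had more than 5 times the highest library of rep4 to rep6. In rep1 to rep3 it stood at 35.4, 67.0 and 48.0 CPM, still below every #v library, and the change was 1.42. In vivo AKP was higher still at 415, 455 and 446 CPM, and #iv lay at 15.7, 23.6 and 21.4 CPM. *Ascl2*, the transcription factor that works with β-catenin in stem cells, gave 78.8, 76.6 and 81.3 CPM in #v and 42.0, 52.2 and 46.9 CPM in organoid AKP (0.74 ± 0.12, adjusted p = 4.2e-06).

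Further stem cell markers rose by about 1 log2 unit. *Prom1*, a membrane protein of crypt cells, changed by 1.08 ± 0.08, adjusted p = 1.1e-16, and the ion cotransporter *Slc12a2* by 0.79 ± 0.08, adjusted p = 2.3e-11. *Lrig1*, a brake on EGF receptors, changed by 1.09 ± 0.18, adjusted p = 2.2e-05, and *Hopx*, a homeodomain cofactor, by 1.23 ± 0.23, adjusted p = 0.00025. The libraries of the 2 lines did not overlap in any of these, and all held, *Ascl2* included. *Rnf43*, *Bmi1* and *Tert* were higher against rep4 to rep6 and not called against rep1 to rep3 (0.28, 0.25 and 0.84). Against control 17 of the 20 markers were higher in #v and 1 was lower. The lower one was *Prom1* (-1.82 ± 0.08, adjusted p = 1.7e-28), at 1339, 1409 and 1318 CPM in control.

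*Cd44*, the hyaluronan receptor, was the marker that was lower. It stood at 569, 532 and 511 CPM in #v and 836, 857 and 822 CPM in rep4 to rep6 (-0.64 ± 0.09, adjusted p = 6.1e-07), but at 439, 537 and 443 CPM in rep1 to rep3, where the change was 0.18. *Sox9*, a crypt base factor, was at 895, 881 and 829.9 CPM in #v and 877, 857 and 894 CPM in organoid AKP (-0.01 ± 0.08, adjusted p = 0.94), and the ranges overlapped.

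Among WNT target and feedback genes 14 of 27 were higher and 2 lower, with a median of 0.32, and against rep1 to rep3 the counts were 18 and 1. Of the 9 transcription factors in the list 6 were higher and none lower. *Tcf4*, an E-box factor, rose from 127, 119 and 105 to 270.1, 220.1 and 212 CPM (0.99 ± 0.09, adjusted p = 2.6e-13), and *Tcf7*, which binds DNA with β-catenin, from 27.4, 29.2 and 29.7 to 39.8, 48.4 and 50.3 CPM (0.70 ± 0.15, adjusted p = 0.00034). *Prox1*, a homeobox factor of colon tumours, rose from 7.65, 7.41 and 2.93 to 65.0, 33.2 and 23.6 CPM (2.64 ± 0.36, adjusted p = 6.4e-06), with the first #v library the highest. *Mmp7*, the protease matrilysin, rose from 3.56, 6.02 and 4.49 to 24.3, 23.3 and 25.8 CPM (2.36 ± 0.18, adjusted p = 4.4e-16). All of these held, at 1.48, 0.85, 3.87 and 0.73, so that the change of *Mmp7* was much smaller against rep1 to rep3.

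Some of the best known β-catenin targets were not called. *Axin2* was at 163, 166 and 155 CPM in #v and 132, 134 and 127 CPM in organoid AKP (0.30 ± 0.16, adjusted p = 0.18), without overlap. *Lef1*, *Myc*, *Ccnd1* and *Znrf3* changed by -0.14, 0.18, -0.15 and -0.02, with adjusted p of 0.69, 0.73, 0.23 and 0.97. Against rep1 to rep3 *Axin2*, *Myc* and *Znrf3* were higher (0.53, 1.28 and 0.62). Among the feedback inhibitors *Dkk2* rose from 2.49, 3.78 and 2.24 to 8.31, 9.30 and 9.05 CPM (1.62 ± 0.34, adjusted p = 0.00033) and held (2.95), and *Wif1* rose from 1.25, 0.280 and 1.21 to 8.02, 1.71 and 3.33 CPM (2.12 ± 0.64, adjusted p = 0.018). *Dkk3* was higher with 17 counts against 2, a ratio of 8.602 (interval 2.04 to 76.8), and *Nkd2* fell from 3.03, 2.80 and 2.93 to 0.286, 1.24 and 0.715 CPM (-1.81 ± 0.47, adjusted p = 0.0028).

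TCF/LEF factors bind the letters CTTTGAT. The 250 bases before each gene's start in the RefSeq promoter table (GRCm38.p6) were searched for these letters on both strands. They were in 2.78% of the 10364 tested genes with a promoter in the table and in 3.72% of all 27025 promoters. Of 369 genes higher by at least 1 log2 unit 3.79% held them, and of 298 genes lower by as much 3.36%. Of the 16 WNT targets with an entry, *Sp5* and *Mmp7* held them. The *Mmp7* entry, chr9:7692091-7692340 of GRCm38.p6, begins at the coordinate that GRCm39 gives as the start of the gene. Its match may therefore lie within the transcript and not before it. The letters that HNF4 factors bind, CAAAGTCC, which share CTTTG with the first motif on the opposite strand, were in 1.38% of all promoters, 1.55% of tested ones, 2.44% of those of higher genes and 2.68% of those of lower genes. A match describes the letters and not binding. The promoters of *Sp5*, a WNT-induced repressor, and of *Atoh1*, the master factor of secretory cells, are shown because both genes were higher in #v and hold CTTTGAT, 104 and 148 bases before the start. They run 5′ to 3′ on the plus strand, over chr2:70474673-70474922 and chr6:64728875-64729124 of GRCm38.p6, with the motif in capitals.
Sp5: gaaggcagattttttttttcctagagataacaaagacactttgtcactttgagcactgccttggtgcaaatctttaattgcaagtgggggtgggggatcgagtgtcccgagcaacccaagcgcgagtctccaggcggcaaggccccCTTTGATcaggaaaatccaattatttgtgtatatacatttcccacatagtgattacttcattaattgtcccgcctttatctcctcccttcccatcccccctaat
Atoh1: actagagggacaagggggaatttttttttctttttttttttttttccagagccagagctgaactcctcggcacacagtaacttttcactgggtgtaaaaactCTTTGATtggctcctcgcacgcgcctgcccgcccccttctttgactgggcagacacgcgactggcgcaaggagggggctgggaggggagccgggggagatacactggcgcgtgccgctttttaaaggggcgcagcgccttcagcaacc
*Sp5* stood at 28.9, 25.3 and 24.5 CPM in #v and 20.1, 15.7 and 16.9 CPM in rep4 to rep6 (0.57 ± 0.16, adjusted p = 0.0048), and at 22.8, 28.9 and 21.3 CPM in rep1 to rep3 (adjusted p = 0.7). *Atoh1* gave 3.15, 2.17 and 2.86 CPM in #v and 0.890, 0 and 0.173 CPM in rep4 to rep6 (2.94 ± 0.65, adjusted p = 0.00036), and a change of 1.36 against rep1 to rep3 (adjusted p = 0.08). In both genes the #v libraries lay above those of rep4 to rep6, and neither held.

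WNT ligands and receptors were 6 higher and 3 lower of 32 tested, with a median of 0.21, and 14 and 1 against rep1 to rep3. The ligand *Wnt6* rose from 3.20, 1.399 and 1.90 to 16.04, 10.4 and 9.65 CPM (2.42 ± 0.27, adjusted p = 1.1e-10). *Wnt5b*, which acts outside the β-catenin route, rose from 1.60, 0.839 and 1.21 to 4.58, 4.50 and 4.29 CPM (1.87 ± 0.37, adjusted p = 7.4e-05). *Ror2*, a receptor for ligands of that kind, rose from 6.23, 6.30 and 5.01 to 19.5, 21.1 and 18.2 CPM (1.73 ± 0.20, adjusted p = 3.1e-10). All 3 held, at 2.39, 1.95 and 2.81. The ligands *Wnt7a* (-0.68 and 0.16) and *Wnt7b* (-0.56 and -0.18) were lower and did not hold. *Lgr6*, a relative of LGR5 that also binds R-spondin, gave 30.9, 34.7 and 27.7 CPM in #v, 103, 120.3 and 105 CPM in rep4 to rep6 (-1.82 ± 0.15, adjusted p = 1.3e-13) and 22.8, 31.9 and 27.8 CPM in rep1 to rep3. Its #v libraries thus lay with rep1 to rep3 and below rep4 to rep6.

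Goblet cell genes, which make mucus, had the highest median of the lists, but the result depended on the organoid AKP set. Of 17 tested, 11 were higher and 2 lower with a median of 2.83. With rep1 to rep3 as the reference, 3 were higher and 2 lower. *Tff3*, the trefoil peptide of goblet cells, stood at 9.74, 8.53 and 17.98 CPM in #v, 0, 0.280 and 0 CPM in rep4 to rep6 and 4.77, 9.43 and 2.97 CPM in rep1 to rep3. It had 240 counts in #v and 2 in rep4 to rep6, a ratio of 121 (interval 33.3 to 1009), and an adjusted p of 0.12 against rep1 to rep3. *Agr2*, the disulphide isomerase that folds mucins, gave 18.9, 19.999 and 27.9 CPM in #v, 2.31, 3.36 and 3.80 CPM in rep4 to rep6 (2.83 ± 0.22, adjusted p = 3.1e-16) and 24.9, 19.8 and 17.3 CPM in rep1 to rep3. *Spink4*, *Ern2*, *Muc2*, *Muc13* and *Ang4* were likewise higher against rep4 to rep6, with changes of 0.28, 0.22, -0.28, 0.83 and -0.09 against rep1 to rep3 that were not called. The genes that held were *Foxa3*, *Creb3l1* and *Galnt12*, an enzyme that starts mucin glycosylation (1.18 and 0.93). *Klf4* and *Bcas1* were lower against both sets. In bulk RNA a change in the number of secretory cells and a change in RNA per cell cannot be told apart.

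Colonocyte genes were 12 higher and 2 lower of 40, with a median of 0.40, and 4 and 2 against rep1 to rep3. Brush border and keratin genes accounted for 8 of the 12 higher ones. *Lgals4*, a galectin of the gut surface, gave 427, 495 and 510.4 CPM in #v, 106, 127 and 130.5 CPM in rep4 to rep6 (1.98 ± 0.09, adjusted p = 2.8e-26) and 542, 486 and 546 CPM in rep1 to rep3 (adjusted p = 0.23). *Ceacam1*, an adhesion molecule of the brush border, rose from 179, 183 and 197 to 316, 336 and 317 CPM (0.79 ± 0.08, adjusted p = 1.1e-12). *Krt20*, the keratin of mature colonocytes, rose from 0.534, 1.12 and 1.04 to 3.44, 3.41 and 4.05 CPM (1.98 ± 0.52, adjusted p = 0.0054), against 582, 566 and 553 CPM in control. The protocadherins that link microvilli rose as well, *Cdhr2* by 1.82 ± 0.40, adjusted p = 0.00035 and *Cdhr5* by 2.84 ± 0.35, adjusted p = 3.8e-09, with changes of 1.22 and 0.57 against rep1 to rep3. *Ceacam1*, *Krt20*, *Cdhr2* and *Abcb1a* held, whereas *Lgals4*, *Cdhr5* and *Phgr1*, a small protein of the colon surface (1.21 and -0.13), did not. Of 31 enteroendocrine and tuft cell genes 12 passed the filter. The enteroendocrine factor *Insm1* was higher with overlapping libraries (0.859, 0.155 and 1.91 CPM in #v and 0.178, 0 and 0 CPM in organoid AKP), and the tuft cell genes *Ptgs1* (-0.59 and -1.29) and *Plcg2* (-0.96 and -0.17) were lower, of which *Plcg2* did not hold.

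**Figure D4:**
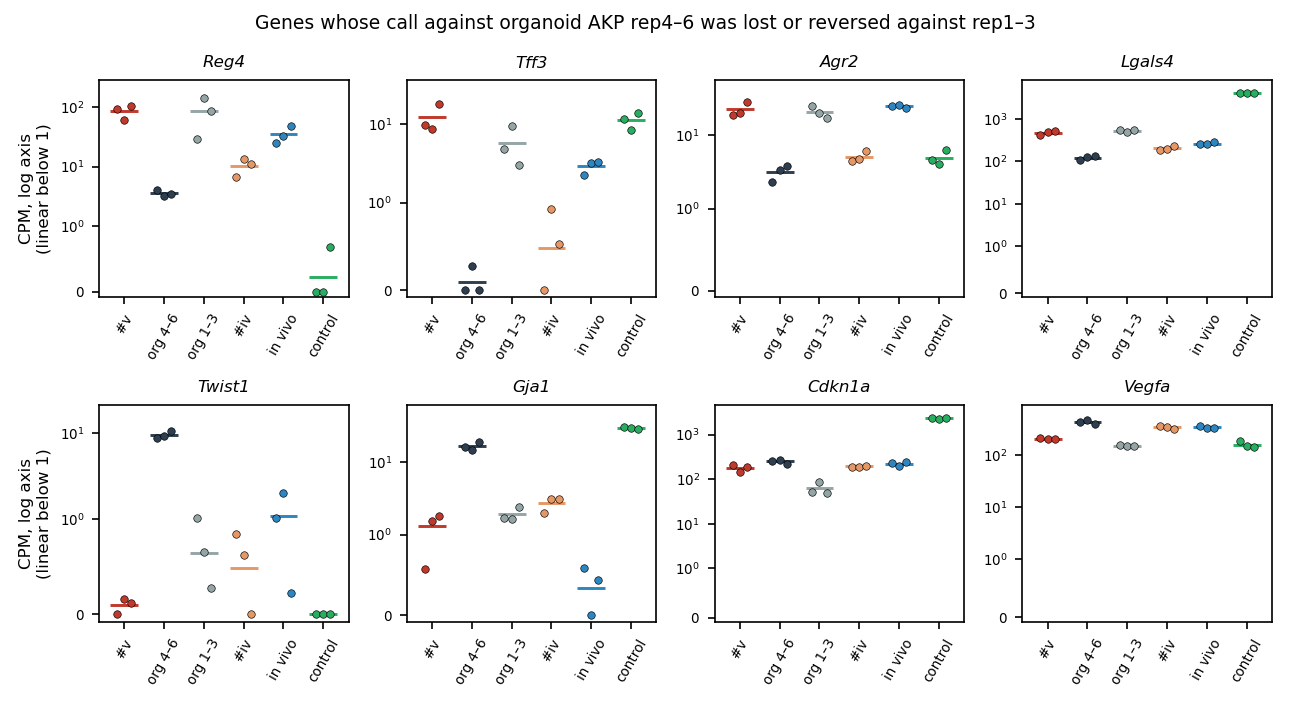
CPM per library (points, axis logarithmic above 1 CPM and linear below) and group mean (line) of 8 genes whose call against organoid AKP rep4 to rep6 was lost or turned against rep1 to rep3, chosen after their values were seen, in #v, both organoid AKP sets, #iv, in vivo AKP and control. For *Reg4*, *Agr2* and *Lgals4* rep1 to rep3 stand beside #v and above rep4 to rep6, and for *Twist1* and *Gja1* rep1 to rep3 stand far below rep4 to rep6.

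Fetal-like and regenerative genes, which mark repair of the gut and its growth before birth, were 2 higher and 6 lower of 23, with a median of -0.16, and 5 and 8 against rep1 to rep3. *Clu*, the clusterin of revival stem cells, rose from 32.9, 38.8 and 42.8 to 105, 112 and 91.2 CPM (1.42 ± 0.13, adjusted p = 4.4e-11) and held (1.52), while #iv was at 163, 169.7 and 154 CPM. *Anxa3* changed by -0.61 and -0.88 against the 2 sets, *Msln* by -0.51 and -0.59 and *Ly6a*, the SCA1 antigen, by -0.23 and -0.22, all lower in both. The gap junction gene *Gja1* fell from 16.2, 14.8 and 18.6 to 0.573, 1.55 and 1.79 CPM (-3.48 ± 0.26, adjusted p = 1.5e-16) but was at 1.70, 1.63 and 2.43 CPM in rep1 to rep3. Of 10 tested gastric and foregut genes *Agr2*, *Muc1* and *Gkn3* were higher. The water channel *Aqp5* was lower, at 10.6, 16.6 and 12.5 CPM in #v and 29.5, 31.6 and 23.3 CPM in organoid AKP (-1.06 ± 0.16, adjusted p = 6.1e-07), and held together with *Gkn3*.

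Targets and partners of YAP, the effector of the Hippo pathway, were 1 higher and 5 lower of 19, with a median of -0.01. The lower count fell to 2 without organoid AKP rep4 or rep6 and without #v rep2 or rep3. *Yap1* itself was the higher member (0.28 and 0.28) and held. *Amotl2*, a YAP-binding junction protein, was lower and held (-0.54 and -1.93), and *Amotl1* was lower and did not hold (-0.99 and -0.21). The standard targets *Ccn1* and *Ccn2* changed by 0.23 and 0.17 (adjusted p = 0.58 and 0.77).

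Cell cycle genes divided by phase against rep4 to rep6. Of 16 S phase genes 11 were higher and none lower, and of 20 mitotic genes 1 was higher and 5 lower. *Ccne1*, the cyclin that starts replication, rose from 20.5, 14.97 and 24.7 to 39.5, 38.1 and 36.3 CPM (0.93 ± 0.15, adjusted p = 1.6e-06). *Gins2*, a replication fork component, rose from 25.8, 29.2 and 29.7 to 43.0, 46.5 and 50.5 CPM (0.73 ± 0.13, adjusted p = 7.9e-06). Neither held (0.33 and 0.02). The spindle factor *Tpx2* fell from 379, 408 and 336 to 258, 259 and 235 CPM (-0.58 ± 0.08, adjusted p = 2.0e-07). *Mki67*, the Ki67 antigen of cycling cells, was at 361, 287 and 283 CPM in #v and 367, 484 and 340.4 CPM in organoid AKP (-0.36 ± 0.13, adjusted p = 0.04), and the first #v library lay within the organoid AKP range. The call of *Mki67* was lost without organoid AKP rep5 (-0.20, adjusted p = 0.29), #v rep2 (-0.31) or #v rep3 (-0.30), and when the 15 libraries of letter F or the 6 libraries were fitted alone. The mitotic genes *Tpx2*, *Cenpe* and *Cenpf* held (-0.34, -0.67 and -0.42), *Mki67* was lower against rep1 to rep3 too (-0.52), and *Mcm2* was the S phase gene that held (0.38 and 0.37). Over the whole list of 36 genes 12 were higher and 5 lower against rep4 to rep6, and 2 and 16 against rep1 to rep3. The count of higher genes was 7 without organoid AKP rep4, 6 without #v rep2 and 7 without #v rep3, and that of lower genes 3 without #v rep3.

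Of 7 cell cycle inhibitors 4 were lower and 0 higher (median -0.41), and 2 and 4 against rep1 to rep3. The INK4 inhibitors of the cyclin D kinases *Cdkn2a* and *Cdkn2b* were lower in every #v library than in every organoid AKP library. *Cdkn2a* (ENSMUSG00000044303, chr4:89192708-89212890) encodes both p16 and p19ARF with a shared 3′ end, so these reads do not separate them. It stood at 66.5, 59.5 and 59.2 CPM in #v and 203, 206 and 188 CPM in organoid AKP (-1.70 ± 0.09, adjusted p = 1.3e-22). *Cdkn2b*, its neighbour, stood at 4.01, 2.79 and 3.45 CPM in #v and 17.1, 16.5 and 15.7 CPM in organoid AKP (-2.29 ± 0.21, adjusted p = 2.3e-13). Both held, at -1.89 and -2.31. The levels in #iv lay between those of the 2 lines, at 136, 134 and 127 CPM for *Cdkn2a* and 10.1, 7.45 and 6.53 CPM for *Cdkn2b*. The other called members turned. *Cdkn1a*, the p53-induced inhibitor p21, stood at 205, 147 and 184 CPM in #v, 259.7, 274 and 218 CPM in rep4 to rep6 (-0.5 ± 0.13, adjusted p = 0.0053) and 50.7, 88.4 and 47.7 CPM in rep1 to rep3 (1.52), and *Cdkn2d* changed by -0.41 and 0.49. Targets of p53 were 2 higher and 5 lower of 26, with a median of 0.01. Of these, the kinase *Plk2* was lower against both sets (-0.68 and -0.90) and *Btg2*, an antiproliferative factor, higher against both (0.86 and 1.22). *Perp*, of desmosomes, was lower (-0.39) and did not hold (-0.17).

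MYC-related and ribosome biogenesis genes were 17 higher and 0 lower of 29, with a median of 0.28. Against rep1 to rep3 the split turned to 4 higher and 10 lower, and without organoid AKP rep5 10 were higher. *Cad*, the enzyme that starts pyrimidine synthesis, rose from 40.8, 46.9 and 49.9 to 86.8, 89.8 and 87.6 CPM (0.94 ± 0.11, adjusted p = 3.8e-10). *Mycl*, a relative of MYC, rose from 9.26, 11.1 and 9.49 to 18.05, 15.8 and 22.03 CPM (0.91 ± 0.18, adjusted p = 5.7e-05). Both held, at 0.46 and 1.76. *Srm*, spermidine synthase, was higher against rep4 to rep6 (0.53 ± 0.10, adjusted p = 4.0e-05) and did not hold (-0.11).

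Of 20 tested receptor tyrosine kinases 5 were higher and 2 lower, with a median of 0.05, and 9 and 1 against rep1 to rep3. Receptors for FGF were among the higher ones, at low levels. Of 6 tested receptors of the FGF, KIT, PDGF and VEGF families 4 were higher and 1 was lower. *Fgfr2* gave 3.72, 2.48 and 4.76 CPM in #v and 0.178, 0.140 and 0 CPM in organoid AKP. With 69 counts against 2 the ratio was 34.9 (interval 9.31 to 294), and it held (1.83). *Fgfr4* stood at 2.01, 2.48 and 2.26 CPM in #v and 0.712, 0.280 and 0.173 CPM in organoid AKP (2.51 ± 0.60, adjusted p = 0.0011), and held. *Fgfr3* stood at 3.44, 2.64 and 3.33 CPM in #v and 1.07, 2.24 and 0.863 CPM in organoid AKP (1.09 ± 0.38, adjusted p = 0.028), with an adjusted p of 0.057 against rep1 to rep3. Its call was also lost with DESeq2 (adjusted p = 0.052), without organoid AKP rep4 (0.94, adjusted p = 0.11) or rep6 (0.85, adjusted p = 0.14) and without #v rep1 (1.05, adjusted p = 0.055) or #v rep3 (1.02, adjusted p = 0.11). *Kit*, the stem cell factor receptor, had 24 counts in #v and 2 in organoid AKP, a ratio of 12.1 (interval 3.02 to 106), and held with an adjusted p of 0.041 against rep1 to rep3. *Met*, the hepatocyte growth factor receptor, was lower (-0.57 ± 0.09, adjusted p = 1.7e-06) and held. *Egfr*, *Erbb2*, *Erbb3* and *Igf1r* changed by 0.32, -0.01, 0.20 and 0.07 and were not called. Against rep1 to rep3 *Egfr*, *Erbb3* and *Igf1r* were higher (0.81, 1.01 and 1.0).

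Among the ligands that bind such receptors 4 of 35 were higher and 9 lower, with a median of -0.06, and 12 and 5 against rep1 to rep3. The higher count was 2 without organoid AKP rep5, #v rep1 or #v rep2. Of 7 EGF family ligands 5 were lower, among them *Hbegf* (-0.64 and -0.07, not held), *Tgfa* (-0.53) and *Btc* (-0.40). *Tgfa* and *Btc* were higher against rep1 to rep3 (0.61 and 0.73). *Vegfa*, the vascular growth factor, gave 213, 198 and 206 CPM in #v, 432, 459 and 393 CPM in rep4 to rep6 (-1.06 ± 0.09, adjusted p = 5.4e-15) and 158, 151 and 146 CPM in rep1 to rep3 (0.44), so #v lay between the 2 sets. *Artn*, a ligand of the RET system, fell from 14.95, 19.3 and 15.9 to 6.30, 5.27 and 6.07 CPM (-1.52 ± 0.22, adjusted p = 2.2e-07) and did not hold (0.10). *Fgf13*, an intracellular member of the FGF family, was lower (-1.01 ± 0.17, adjusted p = 4.0e-06) and held (-1.11). *Gas6*, the ligand of AXL and MERTK, rose from 1.60, 0.979 and 2.42 to 3.44, 5.58 and 6.31 CPM (1.72 ± 0.35, adjusted p = 0.00011) and held (1.12). *Kitl*, the ligand of KIT, stood at 160.4, 171 and 160.3 CPM in #v and 157, 146 and 151 CPM in organoid AKP (0.12 ± 0.08, adjusted p = 0.31).

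Of 8 tested genes in the list of IGF binding proteins 3 were higher and 1 lower (median 0.76). *Igfbp4*, a protein that binds insulin-like growth factors, rose from 1.78, 1.399 and 0.345 to 9.17, 11.8 and 15.6 CPM (3.4 ± 0.29, adjusted p = 5.6e-12) and held (3.91). Its mean in in vivo AKP was 759 CPM. *Igfbp7* was higher with 30 counts against 2, a ratio of 15.2 (interval 3.85 to 131), and *Igfbp5*, with 21 against 2, had a ratio of 10.6 (2.60 to 93.5) and overlapping libraries. *Igf2bp2*, the lower member, encodes an mRNA-binding protein and not a protein that binds IGF. It changed by -0.84 ± 0.08, adjusted p = 1.6e-12, and held. Ephrins and their receptors were 2 higher and 5 lower of 17, with a median of -0.03. *Ephb2*, the receptor that holds progenitors in the crypt, was higher (0.35 and 0.51). *Efnb2*, one of its ligands, stood at 46.4, 41.9 and 38.9 CPM in #v and 71.2, 63.9 and 73.5 CPM in organoid AKP (-0.73 ± 0.11, adjusted p = 3.8e-07) and held. The ephrins *Efna5* (-0.65 and -0.26) and *Efna3* (-0.74 and -0.34) were lower and did not hold, and without #v rep1 the call of *Efna3* was lost (-0.60, adjusted p = 0.055).

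MAPK output and feedback genes were 3 higher and 8 lower of 30, with a median of -0.0004. Against rep1 to rep3 the counts were 13 and 4, and without #v rep3 4 were lower. The phosphatases of MAP kinases *Dusp4* (-0.59), *Dusp5* (-0.51), *Dusp6* (-0.27) and *Dusp7* (-0.41) were lower, and of these *Dusp5* held (-0.73), with 0.19, 0.02 and 0.34 for the others. The AP-1 factor *Fosl1* was lower against both sets (-0.56 and -1.18), *Jun* was higher against both (0.45 and 1.31) and *Junb* turned (-0.44 and 0.27). The ERK-induced factors *Etv4* and *Etv5* changed by 0.14 and 0.25 (adjusted p = 0.45 and 0.14).

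Receptors coupled to G proteins gave 15 higher and 3 lower genes of 31, with a median of 0.59, and 11 and 4 against rep1 to rep3. *F2r*, the thrombin receptor, rose from 3.56, 2.52 and 5.01 to 15.2, 18.6 and 12.6 CPM (2.07 ± 0.28, adjusted p = 3.4e-07). The purine receptor *P2ry1* rose from 1.25, 1.26 and 0.863 to 3.44, 11.5 and 7.50 CPM (2.78 ± 0.33, adjusted p = 8.9e-10), with the first #v library the lowest. The lysophosphatidic acid receptor *Lpar1* rose from 6.23, 9.37 and 6.04 to 15.8, 17.2 and 19.1 CPM (1.26 ± 0.17, adjusted p = 4.2e-08). All 3 held, at 1.89, 1.36 and 0.83. *Glp1r*, the receptor of the gut hormone GLP-1, had no count in organoid AKP and 55 in #v, at least 18.6-fold more over the floor of 3 counts, and held. *Ffar4*, a fatty acid receptor, was higher against both sets (0.68 and 1.66). *Ptger4*, a prostaglandin E2 receptor, rose from 2.85, 2.24 and 2.93 to 9.45, 7.75 and 8.10 CPM (1.64 ± 0.24, adjusted p = 1.8e-07) and did not hold (0.52). *Tacr3*, the neurokinin B receptor, fell from 4.98, 3.50 and 5.87 to 0.286, 0.155 and 0.834 CPM (-3.21 ± 0.49, adjusted p = 6.1e-07) and held.

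Of 14 Notch pathway genes 2 were higher and 2 lower, near the shares over all tested genes, with a median of 0.13. *Hes1*, the Notch-induced repressor of secretory fate, stood at 187, 202 and 220.4 CPM in #v and 330.4, 312 and 317 CPM in organoid AKP (-0.65 ± 0.12, adjusted p = 9.9e-05), with -0.29 against rep1 to rep3 (adjusted p = 0.069). *Hes6*, an inhibitor of HES1, was higher against both sets (0.67 and 0.48), and the ligase *Dtx4* was higher (0.98) without holding (0.05). The receptor *Notch3* fell from 9.26, 8.81 and 9.67 to 3.72, 2.79 and 2.98 CPM (-1.58 ± 0.26, adjusted p = 4.1e-06) and did not hold (-0.01).

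TGFβ and BMP genes were 3 higher and 8 lower of 38, with a median of -0.08, and 17 and 2 against rep1 to rep3. When the 6 libraries were fitted alone 5 were higher. *Inhba*, the activin A subunit, fell from 48.1, 37.5 and 40.9 to 16.9, 18.1 and 16.9 CPM (-1.28 ± 0.14, adjusted p = 3.3e-11). *Smad7*, the feedback inhibitor of the pathway, fell from 72.6, 68.4 and 75.1 to 41.8, 31.0 and 28.8 CPM (-1.12 ± 0.13, adjusted p = 1.5e-10). Both held, at -1.12 and -0.5. The ligand *Tgfb3* rose from 2.31, 2.66 and 3.62 to 9.74, 14.1 and 9.53 CPM (1.96 ± 0.26, adjusted p = 2.9e-08) and held (1.85). *Bmp7* (1.33) was higher and held, whereas *Bmp2* (-1.09 and 0.49) and *Bmp4* (-1.15 and -0.28) were lower and did not.

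Genes of the basement membrane and of the integrins that grip it were more often lower against rep4 to rep6. Of 32 tested integrins, laminins and collagens 17 were lower and 5 higher, with a median of -0.27. With rep1 to rep3 as the reference the split turned to 8 lower and 14 higher. *Col18a1*, the source of endostatin, stood at 99.7, 115 and 107 CPM in #v and 211, 223 and 206 CPM in organoid AKP (-0.99 ± 0.09, adjusted p = 2.2e-13), and held (-0.40). The laminins *Lamb2* (-0.62 and -0.74) and *Lamb3* (-0.49 and -0.44), agrin, *Agrn* (-0.41 and -0.46), and *Col4a2* (-0.26 and -0.53) were lower against both sets, like *Itgb7* above. *Itga6* (-0.26 and 0.55), *Itgb1* (-0.41 and 0.22), *Lama3* (-1.04 and 1.69) and *Lamb1* (-0.73 and 0.84) turned. *Itga2*, the collagen-binding integrin chain, rose from 1.60, 1.399 and 1.21 to 16.04, 10.4 and 11.3 CPM (3.09 ± 0.29, adjusted p = 6.5e-13) and held (3.16). *Fbln1* (3.41 and 2.35), *Col12a1* (2.05 and 1.97) and *Col16a1* (2.21 and 3.36) also rose and held.

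*Timp3* (ENSMUSG00000020044, chr10:86136236-86185371), an inhibitor of metalloproteinases that is held in the matrix, was lower against both sets. It stood at 43.8, 41.4 and 41.4 CPM in #v, 277, 211 and 279 CPM in rep4 to rep6 (-2.60 ± 0.12, adjusted p = 8.1e-20) and 302, 199.9 and 244 CPM in rep1 to rep3 (-2.56). The #v libraries were close to each other, and every organoid AKP library was more than 4 times higher. In #iv the levels were 155, 199 and 168 CPM, in in vivo AKP 12.2, 9.60 and 9.82 CPM and in control 98.5, 120.2 and 111 CPM. *Timp1* was also lower (-0.91 and -0.74) and *Mmp15*, a membrane-bound protease, higher (1.13 and 1.22). The list of proteases and inhibitors had 2 higher and 5 lower of 19, with a median of -0.08.

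Of 6 mesenchymal genes 3 were higher and 1, *Twist1*, was lower. *Vim*, the mesenchymal filament vimentin, gave 117, 42.6 and 39.9 CPM in #v and 5.52, 21.7 and 7.59 CPM in organoid AKP (2.38 ± 0.44, adjusted p = 0.00024), with the first #v library and organoid AKP rep5 standing above the others of their lines. *Fn1*, fibronectin, rose from 5.16, 3.08 and 4.14 to 17.2, 17.4 and 21.7 CPM (2.22 ± 0.20, adjusted p = 2.3e-13). Both held, at 2.41 and 2.66, but the call of *Vim* was lost when the 6 libraries were fitted alone (2.34, adjusted p = 0.092). Of 12 epithelial genes 1 was higher and 5 were lower. *Cdh1*, E-cadherin, was the higher one, at 902, 928 and 899 CPM in #v and 702, 812 and 724 CPM in organoid AKP (0.29 ± 0.08, adjusted p = 0.005), and held. *Esrp1*, an epithelial splicing regulator, was lower against both sets (-0.23 and -0.41). Claudins of the tight junction were 4 higher and 2 lower of 11, with a median of 0.20. *Cldn2*, which forms a pore for cations in crypts, rose from 3.74, 6.58 and 5.01 to 26.9, 30.1 and 38.0 CPM (2.63 ± 0.18, adjusted p = 6.9e-18) and held (1.13). *Cldn3* (0.46 and 0.61) and *Cldn4* (0.74 and 1.80) rose as well and held.

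Genes for lipid synthesis were more often higher. Of 24 cholesterol genes 13 were higher and 0 lower, with a median of 0.36, and 10 and 2 against rep1 to rep3. *Mvd*, which makes isopentenyl diphosphate, stood at 75.9, 104 and 84.0 CPM in #v and 52.5, 57.1 and 58.5 CPM in organoid AKP (0.66 ± 0.12, adjusted p = 1.9e-05). The sterol carrier *Stard4* changed by 0.44 and 0.49 against the 2 sets. Both held, while *Hmgcs1* and *Sqle* changed by 0.01 and 0.09 (adjusted p = 0.96 and 0.49).

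Of 27 fatty acid synthesis genes 9 were higher and 1 lower, with a median of 0.18, and 12 and 2 against rep1 to rep3. *Fasn*, fatty acid synthase, rose from 106, 139 and 141 to 249, 288 and 239 CPM (1.01 ± 0.14, adjusted p = 5.1e-06). The elongase *Elovl6* rose from 44.3, 40.7 and 55.9 to 76.2, 95.5 and 80.3 CPM (0.85 ± 0.11, adjusted p = 1.1e-08) and the desaturase *Fads1* from 21.7, 28.4 and 27.3 to 49.6, 56.9 and 55.0 CPM (1.06 ± 0.12, adjusted p = 2.4e-10). For all 3 every #v library lay above every library of rep4 to rep6, and all held. *Acly*, *Scd1* and *Fads2*, further enzymes of the route, changed by 0.38, 0.45 and 0.66 and held.

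Phospholipid genes were 9 higher and 5 lower of 36 (median 0.17). The lower count was 3 without organoid AKP rep4 and 1 without rep5, #v rep2 or #v rep3. *Lpcat3*, which places polyunsaturated chains in membranes, was higher against both sets (0.40 and 0.33). *Gdpd3*, a lysophospholipase, stood at 11.2, 9.30 and 9.65 CPM in #v and 30.1, 26.7 and 33.3 CPM in organoid AKP (-1.60 ± 0.16, adjusted p = 5.5e-12) and held. Fatty acid oxidation and PPAR genes were 3 higher and 1 lower of 20 (median 0.03). The near-identical thioesterases *Acot1* (0.85 and 0.70) and *Acot2* (-0.77 and -1.67) moved apart, and both held. Glycolysis genes were 2 higher and 3 lower of 22 (median -0.03). *Hk2*, a hexokinase (0.42), and *Slc16a3*, a lactate exporter (0.90 and 1.66), were the higher ones and held. *Slc2a3*, a glucose transporter, was lower, with 3 counts in #v and 33 in organoid AKP, 10.9 times as much (interval 3.41 to 55.4). It did not hold (adjusted p = 0.24), and its call was lost without organoid AKP rep5 (adjusted p = 0.055). Of 9 mitochondrially encoded genes none was called by edgeR (median -0.13).

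*Gpx2* (ENSMUSG00000042808, chr12:76839107-76842326), the glutathione peroxidase of the gut epithelium, was higher in #v than in any other group shown. It gave 523, 596 and 664 CPM in #v, 249, 299 and 257 CPM in rep4 to rep6 (1.15 ± 0.09, adjusted p = 1.1e-16) and 263, 332 and 326 CPM in rep1 to rep3 (0.95). In #iv it stood at 336, 326 and 350.1 CPM, in in vivo AKP at 374, 375 and 352 CPM and in control at 101, 103 and 118 CPM, so the lowest #v library lay above all of these. Of 28 antioxidant genes 9 were higher and 3 lower (median 0.20). The higher count was 5 without organoid AKP rep4 or #v rep3, and the lower count 1 without rep5. *Prdx1*, a peroxiredoxin, was higher against both sets (0.28 and 0.63) and *Txnrd1*, a thioredoxin reductase, lower against both (-0.28 and -0.55). The glutathione transferases *Gsta3* (1.43 and 0.25), *Gsta4* (0.46 and -0.37) and *Gstm1* (0.56 and -0.27) did not hold, and reads of such paralogs may be shared. Without #v rep3 *Gstm1* was not called (0.41, adjusted p = 0.080).

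Genes that ATF4 induces when amino acids are short were more often lower than higher. Of 21 tested 9 were lower and 1 higher, with a median of -0.22, and 12 and 4 against rep1 to rep3. Without organoid AKP rep4, 5 were lower. *Ddit3*, the stress factor CHOP, fell from 85.8, 101 and 81.8 to 59.6, 43.4 and 52.4 CPM (-0.81 ± 0.11, adjusted p = 5.6e-08). *Trib3*, a pseudokinase, fell from 288, 216 and 259.8 to 184, 163 and 184 CPM (-0.52 ± 0.10, adjusted p = 8.0e-05), and *Pycr1*, of proline synthesis, from 70.0, 61.0 and 57.5 to 49.0, 43.7 and 34.8 CPM (-0.59 ± 0.13, adjusted p = 0.00026). All 3 and *Atf4* itself (-0.22) held. *Atf5* was the higher member (0.30), and it was lower against rep1 to rep3 (-0.48).

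Of 23 interferon response genes 1 was called, with a median of -0.22. It was *Isg15*, a ubiquitin-like modifier, at 9.45, 11.2 and 12.6 CPM in #v and 27.9, 24.2 and 21.1 CPM in organoid AKP (-1.10 ± 0.17, adjusted p = 4.9e-07), and it held. Of 18 MHC class I genes *H2-Q10* (2.75 and 1.47) and the immunoproteasome subunit *Psmb10* (0.64) were higher and *H2-T22* was lower (-0.60). Reads of H2 genes may be shared among near-identical copies, and *Psmb10* and *H2-T22* did not hold (-0.36 and 0.06). The call of *H2-T22* was also lost without organoid AKP rep4 (-0.54) or rep5 (-0.63) and without #v rep2 (-0.62) or #v rep3 (-0.52). Of 26 chemokine and cytokine genes 3 were higher and 3 lower, near the shares over all tested genes. *Il1a*, the alarmin interleukin-1α, had 1 count in #v and 16 in organoid AKP, 15.8 times as much (interval 2.46 to 663). It did not hold, and its call was lost without #v rep3 (adjusted p = 0.093). The neutrophil chemokine *Cxcl2* (1.17 and 2.05) and *Cxcl16* (-0.46 and -0.58) held. *Slpi*, a protease inhibitor of epithelial secretions, fell from 12.99, 17.9 and 14.3 to 7.16, 7.13 and 6.67 CPM (-1.13 ± 0.21, adjusted p = 2.3e-05) and held.

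Imprinted genes were 4 higher and 4 lower of 31, near the shares over all tested genes (12.4% and 12%), with a median of 0.08. Besides *Snrpn*, the paternally expressed *Peg3* rose from 0.356, 0.280 and 0.173 to 4.30, 4.34 and 2.14 CPM (3.53 ± 0.58, adjusted p = 2.9e-06) and held (2.97). *Gnas*, which encodes the stimulatory G protein, turned (-0.29 and 0.34). Of 6 tested Y-linked genes 5 were higher in #v, *Eif2s3y* by 1.17, which did not hold (0.37). Of the 11 genes in the sex-linked list 5 were higher against rep4 to rep6 and 0 against rep1 to rep3. The helicase *Ddx3y* stood at 90.8, 77.7 and 79.4 CPM in #v, 34.9, 49.7 and 44.5 CPM in rep4 to rep6 (0.93 ± 0.11, adjusted p = 8.5e-10) and 91.9, 89.1 and 98.97 CPM in rep1 to rep3 (adjusted p = 0.19), so rep4 to rep6 lay below both others. By chromosome, the Y-linked genes had a median change of 0.95 and those of chromosome 19 a median of 0.14, with 104 of 475 higher and 32 lower. The other nuclear chromosomes had medians between -0.03 and 0.05. *Fads1* and *Fads2* are among the genes of chromosome 19. What part that chromosome has in the list counts was not tested.

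Line #iv gave a comparison that does not use organoid AKP. Against #iv 1056 genes (7.76%) were higher and 1080 (7.94%) lower in #v, with 266 higher and 198 lower by at least 1 log2 unit. Without #v rep3, 669 were lower. Of 20 stem cell markers 10 were higher and 1 lower (median 0.52), of 27 WNT targets 13 and 1 (median 0.46), and of 17 goblet cell genes 12 and 0 (median 1.82). *Smoc2* was higher than in #iv by 2.74 ± 0.18, adjusted p = 1.6e-11. *Prox1* was at 2.53, 5.28 and 3.14 CPM in #iv (3.39 ± 0.46, adjusted p = 1.5e-05), *Ascl2* at 30.9, 34.1 and 37.4 CPM (1.21 ± 0.14, adjusted p = 1.0e-09) and *Lgr5* at 87.1, 85.3 and 81.0 CPM (0.65 ± 0.12, adjusted p = 0.00014). *Hnf4a* was at 1.41, 3.72 and 3.92 CPM in #iv (2.39 ± 0.34, adjusted p = 7.9e-06). These genes were thus higher in #v than in both other lines, and so was *Gpx2* (0.82 ± 0.09, adjusted p = 1.0e-10). Both comparisons use the same #v libraries, and these genes were picked with their change against organoid AKP known. The 2 results are therefore not independent. *Timp3* (-2.05 ± 0.13, adjusted p = 2.5e-15) and *Cdkn2a* (-1.11 ± 0.09, adjusted p = 1.2e-13) were lower in #v than in #iv.

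For other genes #iv lay nearer to #v than to organoid AKP. *Rhox5* was at 2.25, 11.8 and 6.79 CPM in #iv (-0.13 ± 0.55, adjusted p = 0.92) and *Snrpn* at 24.7, 24.5 and 21.7 CPM (0.13 ± 0.16, adjusted p = 0.67). *Irx3* was at 24.5, 21.7 and 23.3 CPM (0.33 ± 0.13, adjusted p = 0.082) and *Itgb7* at 0.843, 2.17 and 1.57 CPM (-0.78 ± 0.53, adjusted p = 0.35). None of these differences between #v and #iv was called, and all 4 genes differed from organoid AKP in #v. *Pax2* was higher in #iv than in #v, at 36.8, 36.9 and 25.6 CPM (-1.67 ± 0.22, adjusted p = 8.2e-08), and so was *Clu* (-0.66 ± 0.12, adjusted p = 0.00015).

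Genes of chromosome 3 were more often lower in #v than in #iv. Of 702 tested genes on chromosome 3, 219 were lower and 16 higher, so that this chromosome held 219 of the 1080 lower genes. Its median was -0.30, whereas no other autosome had a median further than 0.06 from 0. Against organoid AKP rep4 to rep6 the median of chromosome 3 was -0.01, with 68 higher and 84 lower. What part chromosome 3 has in the list counts against #iv was not tested.

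**Figure D5:**
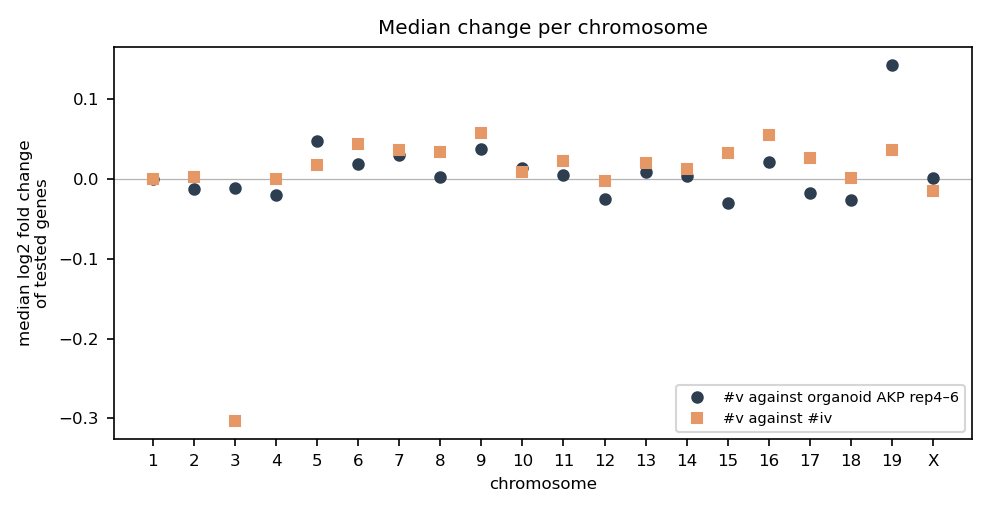
Median log2 fold change of the tested genes of each autosome and the X chromosome in #v against organoid AKP rep4 to rep6 (circles) and against #iv (squares). Chromosome 3 lies at -0.30 against #iv and at -0.01 against organoid AKP, and chromosome 19 at 0.14 against organoid AKP.

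More genes were called between #v and in vivo AKP than between #v and organoid AKP, with 3193 (23.5%) higher and 3157 (23.2%) lower in #v. The Y-linked *Ddx3y* had 2 counts and *Eif2s3y* 0 over the 3 in vivo AKP libraries, while both were expressed in #v and organoid AKP. Their part in these counts of called genes, and that of the animal the cells came from, was not tested. Some genes that separated #v from organoid AKP were not called between #v and in vivo AKP. *Hnf4a* was at 15.5, 12.003 and 17.9 CPM in in vivo AKP (0.04 ± 0.23, adjusted p = 0.92) and *Pax2* at 9.73, 6.40 and 7.64 CPM (0.32 ± 0.25, adjusted p = 0.3). *Lgr5* was at 159, 144 and 141 CPM (-0.17 ± 0.12, adjusted p = 0.26) and *Cldn2* at 29.2, 34.8 and 24.4 CPM (0.15 ± 0.15, adjusted p = 0.43). In others in vivo AKP lay beyond #v on the same side of organoid AKP. *Smoc2* (-1.70), *Igfbp4* (-5.89), *Prox1* (-4.16) and *Vim* (-1.97) were lower in #v than in in vivo AKP, and *Timp3* (1.95) and *Inhba* (3.64) were higher. The INK4 genes stood apart from this order. *Cdkn2a* was at 786, 743 and 714 CPM in in vivo AKP (-3.61 ± 0.09, adjusted p = 5.7e-39) and *Cdkn2b* at 26.98, 26.4 and 20.9 CPM (-2.88 ± 0.21, adjusted p = 5.3e-18), above organoid AKP. WNT targets were 4 higher and 17 lower of 27 in #v, with a median of -0.82. *Axin2*, *Nkd1*, *Notum* and *Sp5* changed by -0.82, -2.87, -2.09 and -2.82 and were lower in #v.

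Against control, 4882 genes (35.9%) were higher and 4662 (34.3%) lower in #v. Of 40 colonocyte genes 36 were lower and 1 higher in #v, all 36 cell cycle genes were higher, and of 27 WNT targets 25 were higher and 1 lower. *Hnf4a* (-4.43 ± 0.18, adjusted p = 1.2e-19), *Krt20* (-7.25 ± 0.22, adjusted p = 2.1e-21) and *Lgals4* (-3.09 ± 0.09, adjusted p = 8.0e-38) were lower in #v than in control. Their increases over organoid AKP rep4 to rep6 thus left them well below the level of non-induced organoids kept in basal medium. The study reports that healthy organoids did not grow in that medium, which holds no growth factors. The differences from control may therefore include a response of the control cells to the medium, and its part in them was not tested. *Fgfr2* was at 52.7, 56.1 and 49.3 CPM in control (-3.81 ± 0.19, adjusted p = 7.2e-26), and *Cdkn2a* was at 124, 130.3 and 127 CPM, above #v as well (-1.05 ± 0.09, adjusted p = 9.4e-16).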

How the data were processed

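QuantSeq 3′ mRNA libraries were made and sequenced by the authors, who aligned the reads to GRCm39 with STAR, and the deposited tables give raw counts per Ensembl gene and library. The counting tool, annotation and strand setting are not given in the sources used here. The submitters' processing notes name R 4.1.2, edgeR and limma. Groups and replicate numbers were taken from the titles. Genes were named from GENCODE M39, and identifiers without a name held 6.85% of all counts. The 13606 genes that reached 1 CPM in 3 or more of the 33 libraries were kept. Counts were scaled by TMM and fitted with the robust quasi-likelihood model of edgeR 4.0.16 (R 4.3.3), with 11 coefficients for line and letter and Benjamini-Hochberg adjustment over all tested genes. The procedure was tested on simulated counts. Named genes are the 12 with the largest called change each way (no overlap between libraries, no predicted name, higher group averaging 5 CPM or more), in each list up to 3 called members with the smallest p, and the genes the study itself names, some of which it picked from these libraries. Further list members, and the genes of 2 figures, were chosen after their values were seen. A few genes, 1 of the 12 largest decreases among them, are not reported here. The members and lists were chosen with earlier results of these data known. Alternatives were other size factors, no filter, limma-voom (limma 3.58.1), DESeq2 1.42.0, fewer libraries, unnamed identifiers removed, another organoid AKP reference and leaving out each library. Replicate pairs differed beyond sampling noise, and the median coefficient of variation was 7.53% in #v and 7.22% in organoid AKP.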

Additional observations from a re-analysis of the deposited data

How the results depend on the processing

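Of 139 genes named by rule and reported, 134 were called. Of these, 124 kept their direction and stayed past the threshold under every alternative that left rep1 to rep3 out of the reference. With all 6 organoid AKP libraries as the reference 118 did so. Under every one of the 15 alternatives in which they could be fitted 93 did so (5 of the called genes were fitted under fewer). With rep1 to rep3 as the reference the direction turned for *Dapl1* (0.55), *Lgr6* (0.17), *Lgals4* (-0.13), *Cdkn1a* (1.52), *Vegfa* (0.44), *Artn* (0.10), *Junb* (0.27), *Gstm1* (-0.27), *Psmb10* (-0.36), *H2-T22* (0.061), *Srm* (-0.11), *Ddx3y* (-0.19), *Phgr1* (-0.13) and *Cd44* (0.18). *Cdkn1a* also turned with all 6 organoid AKP libraries as the reference (0.15). The cause was not tested. Of the 3313 genes called, 45.7% were called in the same direction against rep1 to rep3, 63.6% against all 6 organoid AKP libraries, 90.2% to 99.3% under the other settings, and 71.4% to 87.6% when 1 library was left out. When 1 library was left out, the number of genes lower in #v than in #iv ranged from 669 to 995, against 1080 with all, and the lowest value was without #v replicate 3. The numbers of genes called in the other comparisons stayed within 1.5 times of those given. Of the groups compared directly, #v and #iv share the replicate numbers 1 to 3. The deviations of same-numbered libraries from their group means correlated at -0.014, 0.047 and 0.019. In #v, replicates 2 and 3 correlated best with their own number and replicate 1 did not. Correlations this small cannot decide whether the libraries were paired. With a replicate block, chosen after seeing the data, 998 genes were higher and 1030 lower than in #iv, and 94.1% of the 2136 calls were made in the same direction. For #v against organoid AKP rep4 to rep6, in vivo AKP and control no paired analysis was possible because these libraries share no replicate number with #v. Genes without a count in 1 line have a bound on the same side of the median of their list as the fitted value, so the medians are the same with these genes at their bound. Low counts limit the folds of genes with under 5 counts in 1 line, as their intervals show.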
